A study of Mus musculus with 24 samples.

Results

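The genes described here are 10 markers and regulators of dendritic cells, the immune cells that take up antigen and present it to T cells. They were chosen by gene symbol from the 56205 gene rows of the count table, and each of the 10 symbols matched 1 row. Poly(A) RNA was sequenced from the whole livers of 24 C57BL/6J mice. For 20 weeks 12 of them ate a diet deficient in methionine and choline (MCD), and the other 12 a control diet (a chow in the labels, a control made for MCD in the methods). Males and females were used in equal number on either diet. The labels name no library's sex, no age, and no allele, transgene or further treatment in either group. The MCD diet is a dietary model of steatohepatitis with fibrosis, and the study's methods describe it as high in fat. The study's results name a high-fat diet that is choline-deficient with defined amino acids, and whether that is the same diet is not stated. The control animals differed from the MCD animals only in diet, as far as the labels say. Whole liver mixes hepatocytes with a small number of immune cells, so for every gene below fewer cells of a type and less RNA per cell cannot be told apart.

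Conventional dendritic cells are grouped into cDC1, which cross-present antigen to CD8 T cells, and cDC2, which mainly prime CD4 T cells, while plasmacytoid dendritic cells (pDCs) are producers of type I interferon. They arise from bone marrow progenitors that need the cytokine FLT3 ligand and its receptor Flt3. Irf8 and Batf3 are the transcription factors on which cDC1 development depends, Zbtb46 marks the conventional lineage, and Xcr1, Clec9a and Itgae (CD103) mark cDC1. Cd209a (DC-SIGN) is found on cDC2 and on monocyte-derived cells, Siglech on pDCs, and Itgax (CD11c) on dendritic cells and on many macrophages.

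Total counts ran from 16793207 to 24915175 in control and from 16388650 to 24577848 in MCD libraries, with no difference detected between the diets (two-sided permutation test with 100000 resamples, p = 0.136). Levels are given as CPM, counts scaled to a common library size with TMM factors. Those factors were lower in every control library (0.642 to 0.973) than in any MCD library (1.07 to 1.26), so fold changes are relative to that scale. Levels at or below the floor of 3 counts were treated as unresolved, and that floor is 0.134 to 0.227 CPM in control and 0.109 to 0.158 CPM in MCD libraries. The hepatocyte markers summed to between 53178 and 175542 CPM in every library, as the liver label implies.

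The sequences just before the start sites of 4 members are shown, picked after their values were seen. Itgax and Irf8 rose without overlap between the diets, and of the cDC1 receptors Xcr1 passed the threshold described below and Clec9a did not. They are from RefSeq (GRCm38.p6), 250 bases each, written 5′ to 3′ on the strand of the gene, with capitals marking an AP-1 match. Irf8 has 2 start sites in RefSeq, and the sequence shown is before the one at the GENCODE start of the gene; the other, chr8:120738389-120738638, lies inside the gene and is not shown.
Itgax, chr7:128129300-128129549, plus strand: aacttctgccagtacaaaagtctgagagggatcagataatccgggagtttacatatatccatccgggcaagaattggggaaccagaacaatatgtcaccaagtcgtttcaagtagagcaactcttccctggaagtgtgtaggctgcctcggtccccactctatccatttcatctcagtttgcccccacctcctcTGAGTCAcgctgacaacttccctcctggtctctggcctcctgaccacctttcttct
Irf8, chr8:120736108-120736357, plus strand: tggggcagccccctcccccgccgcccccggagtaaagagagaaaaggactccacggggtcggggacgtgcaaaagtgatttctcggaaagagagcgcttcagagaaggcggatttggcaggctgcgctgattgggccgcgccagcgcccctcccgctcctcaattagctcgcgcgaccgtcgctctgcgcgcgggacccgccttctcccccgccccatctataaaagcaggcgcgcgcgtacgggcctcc
Xcr1, chr9:123862030-123862279, minus strand: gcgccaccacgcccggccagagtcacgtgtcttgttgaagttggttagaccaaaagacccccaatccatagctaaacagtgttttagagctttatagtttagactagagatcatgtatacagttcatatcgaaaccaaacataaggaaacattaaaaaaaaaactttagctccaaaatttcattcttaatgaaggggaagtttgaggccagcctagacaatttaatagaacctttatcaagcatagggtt
Clec9a, chr6:129408612-129408861, plus strand: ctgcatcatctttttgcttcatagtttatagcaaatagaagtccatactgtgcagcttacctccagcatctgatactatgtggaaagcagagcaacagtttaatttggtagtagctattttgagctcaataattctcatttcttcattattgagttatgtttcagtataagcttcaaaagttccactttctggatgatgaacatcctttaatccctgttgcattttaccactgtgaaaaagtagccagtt
Motifs were searched on both strands of 300 bases reaching 50 bases past the start, in the 9 members with an entry. The AP-1 motif TGANTCA, which BATF3 can bind with JUN proteins, was matched in Itgax as TGAGTCA at positions -56 to -50 from the start site, and in Zbtb46 as TGACTCA at positions -61 to -55. The Zbtb46 start in the RefSeq entry lies inside the gene as GENCODE draws it. AP-1 matches were found in 7.81% of all 32851 promoter entries. The PU.1-IRF composite (GGAA, any 2 bases, then GAAA) was matched in Cd209a and in 2.72% of all entries. The interferon-response element (GAAA, any 2 bases, then GAAA; 3.44% of all entries) and the BATF-IRF composite (TTTC, any 4 bases, then the AP-1 motif; 0.119%) had no match in these windows.

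Of the 10 genes, 9 had enough counts to be tested, and Siglech did not. Of the 9 tested, 6 rose in MCD livers: Itgax, Xcr1, Flt3, Irf8, Itgae and Batf3. Clec9a, Zbtb46 and Cd209a did not pass the threshold. That threshold combined an FDR (Benjamini-Hochberg adjusted p, edgeR quasi-likelihood test over 14109 genes) of at most 0.01 with a log2 change of more than 0.5 in size. Of all tested genes, 19.2% passed as higher and 19.1% as lower, 2712 and 2688 genes. That split was 3261 to 1710 with upper-quartile factors and 4539 to 848 with total counts alone. None of the 9 passed as lower with edgeR, DESeq2 or limma-voom, and 1 was lower at an unadjusted p under 0.05 with edgeR. Itgax and Irf8 had every MCD library above every control library, which was the case for 9.5% of tested genes. No member had every MCD library below every control library, the case for 4.88% of tested genes. The median log2 fold change of the 9 tested genes was 1.27, beside -0.10 over all tested genes. Genes that are low in one group and pass the filter through the other are bound to differ, so the count and median are a description.

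**Figure D1:**
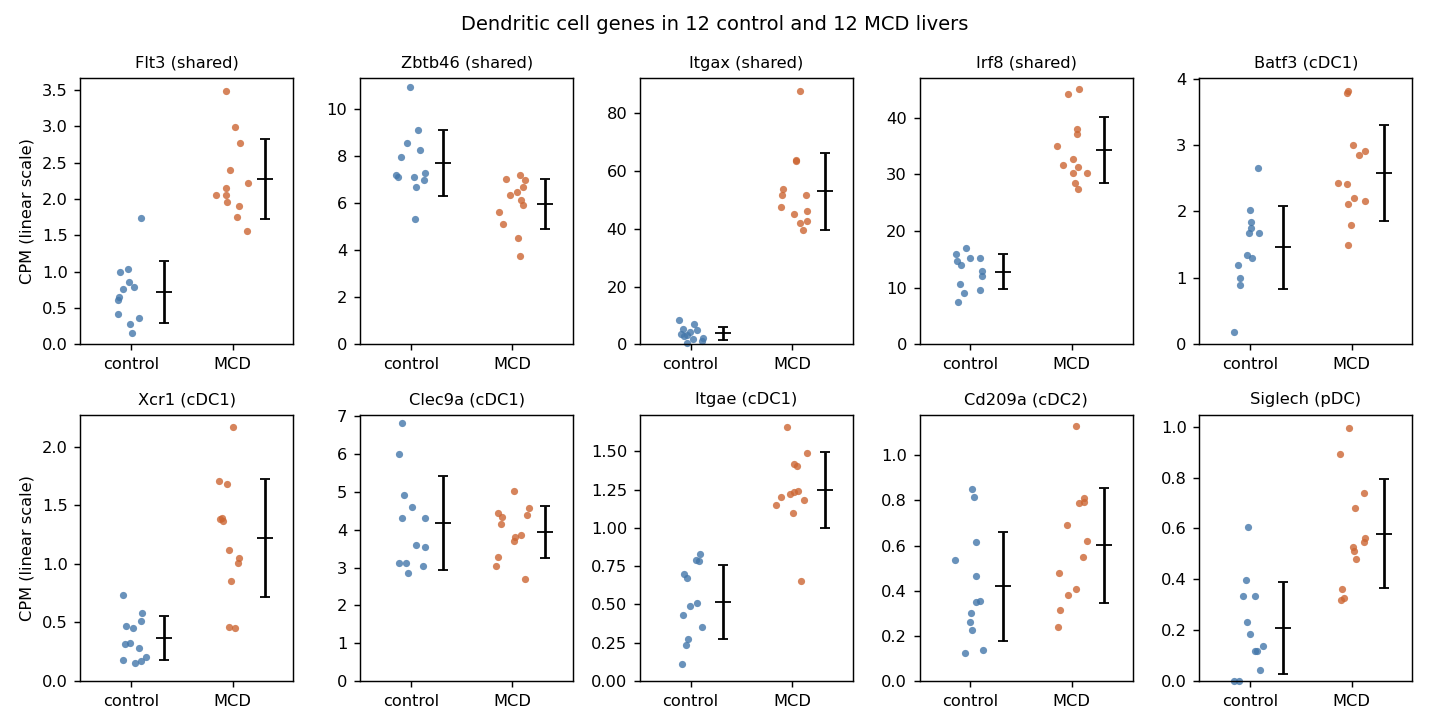
CPM (linear scale, from 0) of the 10 genes in each of the 12 control and 12 MCD livers, with the mean and SD beside the points; the subset each gene marks is in brackets. Itgax and Irf8 show no overlap between the diets, while the Clec9a libraries overlap throughout, with means of 4.19 CPM in control and 3.94 CPM in MCD.

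Itgax (ENSMUSG00000030789; GRCm38 chr7:128129547-128150657) encodes the alpha chain of an integrin and complement receptor. Control libraries held 9 to 157 Itgax counts, with a median of 51.5, and MCD libraries 917 to 2413, with a median of 1167. In CPM the control livers ran from 0.586 to 8.26 (median 3.40) and the MCD livers from 39.7 to 87.8 (median 49.6). Every MCD liver was above every control liver, and MCD replicate 2 was the highest. The mean rose from 3.72 ± 2.34 to 53.0 ± 13.4 CPM (SD, n = 12 each). This was a log2 difference of 3.82 (SE 0.28, edgeR FDR 1.49e-11), a 14.1-fold difference on the fitted scale. Only 0.503% of tested genes had a larger log2 fold change.

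Irf8 (ENSMUSG00000041515; chr8:120736358-120756694), which also acts in monocytes, macrophages and B cells, was the other gene without overlap. Control livers ran from 7.37 to 17.0 CPM (median 13.4) and MCD livers from 27.4 to 45.0 CPM (median 32.1). MCD replicates 2 and 8 were the highest, and the lowest MCD liver stood well above the highest control liver. Irf8 thus rose 2.68-fold, by 1.42 on the log2 scale (SE 0.12, edgeR FDR 2.36e-10). Its standard error was among the smallest of the group, with 125 or more counts in each library.

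Flt3 (ENSMUSG00000042817; chr5:147330741-147400489), the receptor tyrosine kinase of dendritic cell progenitors, had 2 to 31 counts per control library and 37 to 82 per MCD library. In CPM it ran from 0.151, which is below the floor, to 1.74 (median 0.704) in control and from 1.56 to 3.49 (median 2.10) in MCD livers. The groups overlapped by control replicate 3 alone, and the 11 other control livers lay below every MCD liver. Flt3 rose 3.12-fold, by 1.64 on the log2 scale (SE 0.24, edgeR FDR 1.90e-06). Its ligand gene Flt3l, named here for that reason after its values were seen, was near the limit at 0.55 (SE 0.17, edgeR FDR 0.00696). Leaving out control replicate 2, 5, 7, 8, 9, 10 or 11 or MCD replicate 1 or 8 moved Flt3l off the threshold, with a log2 fold change between 0.50 and 0.64 and an FDR of up to 0.0140 over all 24 such fits. Its exons also overlap those of a predicted gene on the same strand.

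Zbtb46 (ENSMUSG00000027583; chr2:181387762-181459426) encodes a zinc finger repressor of conventional dendritic cells that endothelial cells also express. It ran from 5.30 to 10.9 CPM (median 7.24) in control and from 3.75 to 7.17 CPM (median 6.22) in MCD livers, and the groups overlapped. The fitted log2 difference was -0.37 (SE 0.11, edgeR FDR 0.00560), past the FDR limit but within the fold limit. With total counts in place of TMM the value was -0.02 (FDR 0.897). The FDR was also above 0.01 with relative log expression (0.0207) and upper-quartile factors (0.0997), DESeq2 (0.0140), both other filters (0.0245 and 0.0313) and the replicate block (0.0281). It stayed below with limma-voom (0.00420) and a sex-linked covariate (0.00654). Over the 24 fits leaving out a library it ran from 0.00284 to 0.0297. The 7 endothelial markers summed to 197 to 298 CPM in control and 111 to 182 CPM in MCD livers, 6 of them past the threshold as lower. Their part in the Zbtb46 values was not tested.

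Among the cDC1 genes, Xcr1 (ENSMUSG00000060509; chr9:123852315-123862029), the receptor for the chemokine XCL1, gave 2 to 12 reads in control libraries (median 7) and 9 to 51 in MCD libraries (median 30.5). Control livers ran from 0.151 to 0.738 CPM and MCD livers from 0.448 to 2.17 CPM. The overlap came from MCD replicates 1 and 4, and the 10 other MCD livers lay above every control liver. Xcr1 rose 3.31-fold, by 1.73 on the log2 scale (SE 0.27, edgeR FDR 5.27e-06). In 4 control libraries the count was at or below the floor, so the size of this fold rests on few control reads. The caveat above on genes that are low in one group applies to Xcr1.

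Clec9a (ENSMUSG00000046080; chr6:129408862-129424763), the C-type lectin by which cDC1 recognise dead cells, did not show that rise. Control livers ran from 2.86 to 6.82 CPM (median 3.95) and MCD livers from 2.7 to 5.01 CPM (median 4.01), with overlap throughout. Its log2 fold change of -0.09 (SE 0.14, edgeR FDR 0.604) had a 95% confidence interval from -0.38 to 0.20. For Xcr1 the interval ran from 1.16 to 2.29. The sign of the Clec9a value depended on the setting, at 0.06 with upper-quartile factors, 0.25 with total counts alone and 0.01 without control replicate 3. None of these passed the threshold. There were 12.8 Clec9a counts per Xcr1 count in the median control liver (range 6.29 to 21.4) and 3.38 in the median MCD liver (range 1.78 to 10.2). This pair was set side by side after its values were seen, so its intervals and ratios are a description and not a test.

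The Clec9a counts are uncertain for another reason. Its exons share 184 of 3293 bases (5.59%) with Clec1b on the same strand, a lectin gene of liver endothelial and Kupffer cells. Clec1b averaged 11.9 ± 3.40 CPM on the control diet and 9.10 ± 2.67 CPM on MCD (SD over 12 livers). The difference, -0.39 on the log2 scale (SE 0.16, edgeR FDR 0.0404), did not pass. Within the diets the r between Clec9a and Clec1b was 0.34 over 24 libraries. How the counting split shared reads is not stated, and the part of Clec1b in the Clec9a counts was not tested.

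Batf3 (ENSMUSG00000026630; chr1:191097847-191108945) ran from 0.177 to 2.65 CPM (median 1.51) in control and from 1.49 to 3.82 CPM (median 2.42) in MCD livers. The groups overlapped, with 5 MCD livers above every control liver. Batf3 rose by 0.83 on the log2 scale (SE 0.23, edgeR FDR 0.00306), the smallest of the 6 rises. Control replicate 9 had 3 counts, far below the next control library at 0.896 CPM. Itgae (ENSMUSG00000005947; chr11:73090583-73147446), an integrin chain that resident CD8 T cells also carry, ran from 0.112, which is below the floor, to 0.832 CPM in control and from 0.655 to 1.66 CPM in MCD livers. Only MCD replicate 9 fell within the control range, and Itgae rose by 1.27 on the log2 scale (SE 0.22, edgeR FDR 1.79e-05). The 8 T cell markers, 7 of which passed the threshold as higher, summed to a median of 5.15 CPM in control (2.62 to 11) and 17.9 CPM in MCD livers (8.98 to 25.7). Their part in the Itgae rise was not tested.

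Cd209a (ENSMUSG00000031494; chr8:3743397-3748984) had 2 to 15 counts per control library, 2 of them at or below the floor, and 6 to 31 per MCD library. It ran from 0.123 to 0.849 CPM in control and from 0.238 to 1.13 CPM in MCD livers, with only MCD replicate 2 above every control liver. The log2 fold change of 0.50 (SE 0.29, edgeR FDR 0.136) had a 95% confidence interval from -0.10 to 1.09, so no difference was detected. Siglech (ENSMUSG00000051504; chr7:55768178-55778925) gave 0 to 8 reads in control libraries (median 3) and 8 to 20 in MCD libraries (median 13). In 6 control libraries, 2 of them at 0, the count was at or below the floor. Levels ran from 0 to 0.605 CPM in control and from 0.318 to 0.996 CPM in MCD livers, and 4 MCD livers lay above every control liver. A two-sided permutation test of log2(CPM + 0.1) with 100000 resamples gave p = 0.00018 for this single gene. With no low-count filter Siglech passed as higher (edgeR FDR 0.00270 over 27553 genes). No fold is given, since with these control counts its size depends on the pseudocount or prior count.

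Levels were compared between genes per length, as CPM per kb of the longest transcript. In control livers the order of medians was Irf8 (3.87), Zbtb46 (1.36), Batf3 (1.36), Clec9a (1.20), Itgax (0.840), Cd209a (0.237), Flt3 (0.178), Itgae (0.131), Xcr1 (0.0718) and Siglech (0.0701). Among the neighbours in that order, Irf8 lay above Zbtb46 in 12 of 12 control livers and Itgax above Cd209a in 11 of 12. Each of the other 7 neighbouring pairs held its order in 9 or fewer control livers, so their places were not resolved. In MCD livers Itgax came at the top with 12.3 CPM per kb, above Irf8 (9.26) in 11 of 12 livers. Batf3 (2.18), Clec9a (1.22), Zbtb46 (1.17) and Flt3 (0.532) followed, then Cd209a (0.394), Itgae (0.320), Xcr1 (0.279) and Siglech (0.234). Irf8 exceeded Batf3 and Zbtb46 exceeded Flt3 in all 12 MCD livers, and Batf3 exceeded Clec9a in 11, while the other neighbours changed places between livers.

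The 6 pan-leukocyte genes (Ptprc, Cd53, Coro1a, Laptm5, Hcls1 and Was) all passed the threshold as higher in MCD livers, with a median log2 fold change of 1.77, and summed to 38.3 to 110 CPM in control and 203 to 346 CPM in MCD livers. The 9 genes were therefore also fitted per pan-leukocyte count, with the summed counts of those 6 genes in place of the library size. On this scale Itgax alone passed as higher (2.07, SE 0.19), beside 2.76% of all tested genes. Zbtb46 (-2.31), Clec9a (-1.97), Cd209a (-1.34) and Batf3 (-1.05) passed as lower, beside 88.7% of all tested genes, which include the hepatocyte genes. Flt3 (-0.18), Xcr1 (-0.14), Irf8 (-0.46) and Itgae (-0.58) did not pass the threshold. Per count of Ptprc (CD45) alone, Batf3 (-0.59, edgeR FDR 0.0455) and Cd209a (-0.78, edgeR FDR 0.0113) no longer passed, and Flt3 (0.38), Irf8 (0.06) and Xcr1 (0.41) changed sign without passing. Counts per Ptprc count were taken for 5 members. Itgax ran from 0.0682 to 0.619 in control and from 1.43 to 3.36 in MCD livers, and Zbtb46 from 0.481 to 1.13 and from 0.127 to 0.297, both without overlap. The diets overlapped for Clec9a (0.209 to 0.810 and 0.110 to 0.222), Flt3 (0.0267 to 0.138 and 0.0635 to 0.126) and Xcr1 (0.0112 to 0.0876 and 0.0189 to 0.0786). The share of all genes without overlap on this scale was not computed, so nothing is read from these ranges about the members.

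**Figure D2:**
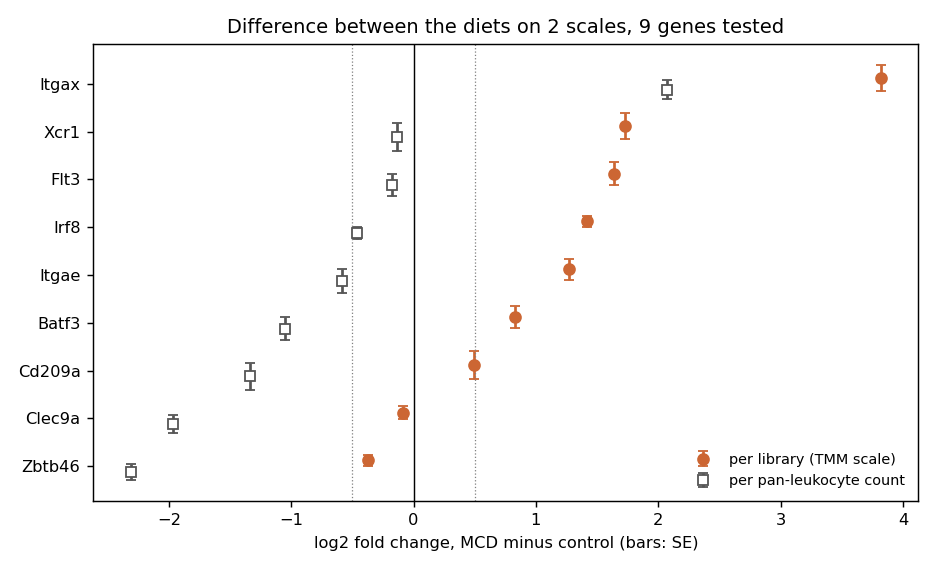
Log2 fold change (MCD minus control, x axis) with its SE for the 9 tested genes, per library on the TMM scale (filled circles) and per pan-leukocyte count (open squares); dotted lines mark the fold limit of 0.5. Itgax lies to the right of the limit on both scales (3.82 and 2.07), while Clec9a moves from -0.09 to -1.97 and Xcr1 from 1.73 to -0.14.

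Marker lists of other cell types differed in direction. The 10 monocyte and macrophage markers, 9 of them past the threshold as higher, summed to a median of 229 CPM in control (145 to 355) and 1481 CPM in MCD livers (1111 to 2658). The 8 Kupffer cell markers overlapped, at 168 to 495 CPM in control and 125 to 346 CPM in MCD livers, with 5 lower and 1 higher. Of 6 B cell markers 5 were tested and 1 was higher. The 6 natural killer cell markers summed to 0.413 to 1.98 CPM in control and 2.53 to 6.10 CPM in MCD livers, and only 1 had enough counts to be tested. For neutrophil markers the sums were 2.24 to 7.24 and 12.8 to 34.0 CPM, and the median control count of the defining marker Ly6g was 0. The 5 cholangiocyte markers all passed as higher, at 30.1 to 146 CPM in control and 452 to 904 CPM in MCD livers. The part of these cell types in the rises of Itgax, Irf8 and the other members was not tested.

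With the diet means removed, Pearson's r of log2 CPM described how the genes varied between livers of one diet over the 24 libraries, which share their scaling. Itgax had an r of 0.88 with the pan-leukocyte sum and 0.76 with the monocyte and macrophage sum. For Irf8 these were 0.88 and 0.86, and Itgax and Irf8 had an r of 0.75 with each other, the highest of 36 member pairs. Among the cDC1 markers and factors Irf8, Batf3, Xcr1, Clec9a and Itgae, r ran from -0.35 (Clec9a with Itgae) to 0.42 (Irf8 with Batf3). Xcr1 had an r of 0.35 with Clec9a, 0.32 with Irf8, 0.21 with Itgae and 0.20 with Batf3. Batf3 had an r of 0.26 with Itgae and 0.19 with Clec9a, and Irf8 of 0.24 with Clec9a and 0.22 with Itgae. Xcr1 had an r of 0.22 and Clec9a of 0.28 with the pan-leukocyte sum. Flt3 went with Clec9a (0.53) and Zbtb46 (0.50), and against the hepatocyte sum (-0.76). Over all 36 pairs r ran from -0.35 (Clec9a with Itgae) to 0.75, with a median of 0.25, and 32 were above 0.

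**Figure D3:**
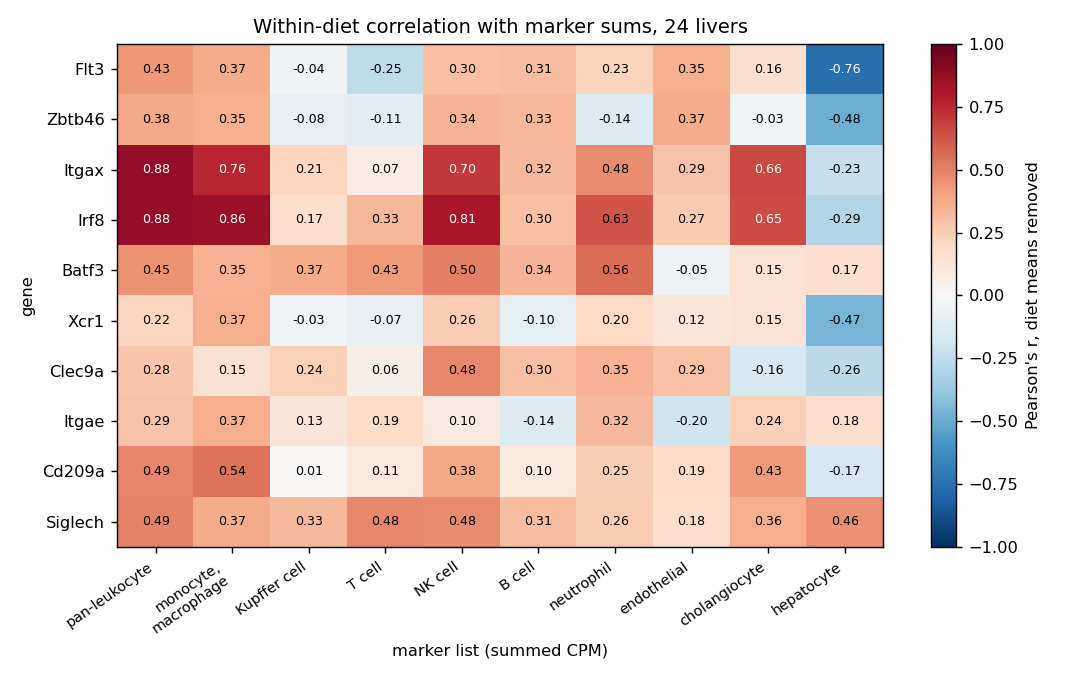
Pearson's r between log2 CPM of each gene (rows) and the log2 summed CPM of each marker list (columns) over 24 livers with the diet means removed; colour runs from -1 (blue) to 1 (red). Itgax and Irf8 show the darkest cells, at 0.88 each for the pan-leukocyte sum, and Flt3 the darkest blue, at -0.76 for the hepatocyte sum.

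Across all tested genes, those most like each member by the same measure were named by rule, 3 for each of the 9 tested members. For Itgax they were Amz1 (0.94), Mbp (0.91) and Myo1f (0.91), and for Irf8 Akr1b10 (0.89), Evl (0.88) and Tgfb1 (0.88). For Flt3 they were Ano6 (0.85), Hpgds (0.83) and Myadm (0.82), and for Zbtb46 Kctd10 (0.83), Cds1 (0.79) and C1qtnf1 (0.77). Clec9a was closest to Pcsk5 (0.82), Cblb (0.80) and Ago3 (0.77), and Xcr1 to Rgmb (0.74), Pgm5 (0.73) and Nptxr (0.73). Batf3 was closest to Sh2d2a (0.80), Ptprcap (0.76) and Igflr1 (0.75). For Itgae they were Prim1 (0.78), Snhg15 (0.77) and Gm11223 (0.75), and for Cd209a Spata6 (0.75), Lrrc55 (0.74) and Sparc (0.74). None of the 9 was among the 3 genes closest to another.

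Related genes were taken from 5 lists made by textbook role, with earlier results of these data known. Of their 59 genes 46 were tested, with 25 higher and 2 lower in MCD livers and a median log2 fold change of 0.82. Beside them, 19.2% of all tested genes were higher and 19.1% lower, with a median of -0.10. Per pan-leukocyte count 2 of the 46 were higher and 29 lower, with a median of -1.04. Over all tested genes 2.76% were higher and 88.7% lower on that scale, with a median of -2.06. The counts of each list below are to be read beside these shares. The values that follow are per library on the TMM scale. The mature dendritic cell list had the highest median, at 1.73, with 7 of 10 tested genes higher, against 1 higher, 4 lower and a median of -0.11 per pan-leukocyte count. Cacnb3, a calcium channel subunit of migratory dendritic cells, rose from 1.40 ± 0.804 to 8.91 ± 2.16 CPM (log2 fold change 2.67, SE 0.22). Cd40, the receptor through which T cells activate antigen-presenting cells, rose from 0.450 ± 0.255 to 2.50 ± 0.491 CPM (2.46, SE 0.23). Of the other cDC1 genes 4 of 9 tested were higher, at a list median of 0.45, led by the interferon-inducible Ifi205 (1.25, SE 0.23) and the inhibitory receptor Btla (1.21, SE 0.26), which B cells also carry. Per pan-leukocyte count 0 of these 9 were higher and 8 lower, with a median of -1.39, beside 88.7% of all tested genes lower. Ifi205 was among the lower (-0.58, edgeR FDR 0.00558).

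Of the cDC2 list 5 of 8 tested genes were higher and 1 lower, at a median of 0.95, against 0 higher and 4 lower per pan-leukocyte count (median -0.91). Of all tested genes 19.2% were higher per library, and 88.7% were lower per pan-leukocyte count. Sirpa, the CD47 receptor that macrophages carry too, rose from 37.7 ± 12.8 to 173 ± 27.2 CPM (log2 fold change 2.20, SE 0.15), and the lectin receptor gene Clec4a4 rose by 1.45 (SE 0.34). Notch2, a receptor that also acts in bile duct formation, was lower (-0.54, SE 0.14) and close to the fold limit. It lost that call with 4 other scalings or filters and DESeq2, and without control replicate 3 or 6 or MCD replicate 2, 6, 7 or 10 (-0.58 to -0.43 over the 24 such fits). Of the pDC list 4 of 8 tested genes were higher, at a median of 1.02, against 1 higher and 4 lower per pan-leukocyte count (median -0.76). The rises were led by Ly6d (2.92, SE 0.44), a surface marker of lymphoid progenitors and some epithelia, and Smim5 (2.66, SE 0.34). The other rises were the transcription factor Runx2 (2.22, SE 0.29), whose exons overlap an antisense gene, and the DNA sensor Tlr9 (1.22, SE 0.27). The 4 that did not pass were Spib (0.82, SE 0.27), Irf7 (0.76, SE 0.26), Bst2 (0.13, SE 0.15) and Tcf4 (-0.05, SE 0.10), a transcription factor the lineage needs. The remaining 5 of the 13 were too low to be tested.

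In the list of growth factors and lineage regulators 5 of 11 tested genes were higher and 1 lower, at a median of 0.35, against 0 higher and 9 lower per pan-leukocyte count (median -1.51). Again 88.7% of all tested genes were lower on the latter scale. Csf2ra, a chain of the GM-CSF receptor, rose from 12.3 ± 4.50 to 52.2 ± 11.1 CPM (log2 fold change 2.09, SE 0.18). Spi1, which encodes the myeloid factor PU.1, rose from 13.6 ± 4.57 to 46.6 ± 9.35 CPM (1.78, SE 0.16). Cebpa, a myeloid factor that hepatocytes express strongly, was lower, at 572 ± 62.8 CPM in control and 322 ± 33.9 CPM in MCD livers (-0.83, SE 0.08, SD of n = 12 each throughout). With total counts alone Cebpa was at -0.46, within the fold limit. The edgeR FDR of the 12 genes that the rule named from these lists was at most 0.00131.

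**Figure D4:**
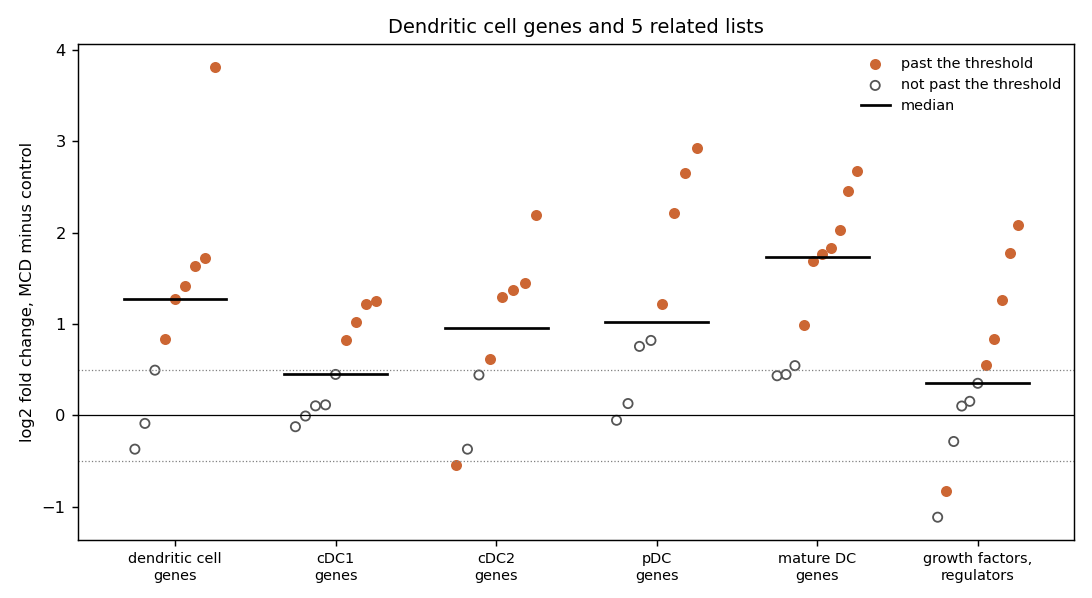
Log2 fold change (MCD minus control) of each tested gene among the 10 dendritic cell genes and in 5 related lists, filled where past the threshold, with the list median as a bar and the fold limits of 0.5 dotted. The mature dendritic cell genes have the highest median, 1.73, and the growth factors and regulators the lowest, 0.35.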

How the data were processed

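Whole-liver poly(A) RNA-seq of 24 mice was analysed. The authors deposited raw read counts per Ensembl gene, 1 column per library, with no normalization. The submitters' processing notes name bcl2fastq, STAR 2.7.3a and build mm10. The study's methods name a stranded TruSeq mRNA kit without giving the species, and the exon quantification pipeline and PISCES for reads aligned to the human genome. The mouse annotation, and whether those programs and the strand were used for the mouse counts, are not given in the sources used here. Among the identifiers, 2122 carry a prefix newer than the symbols used. Symbols, coordinates, lengths and exon overlaps came from GENCODE mouse release M21 (GRCm38), promoters from RefSeq GRCm38.p6. Of 137 symbols listed, 136 matched (all but Tf).

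Counts were filtered with filterByExpr by diet, scaled with TMM and tested with edgeR 4.0.16 (glmQLFit, glmQLFTest) in R 4.3.3 over all 24 libraries with no covariate. A call needed an FDR of at most 0.01 and a log2 change beyond 0.5 in either direction. SEs are the log2 fold change over the square root of F. Log2 CPM used a prior count of 2. Alternatives included DESeq2 1.42.0 and limma-voom (limma 3.58.1). Permutations used scipy 1.17.1. The code of the fits was run on simulated counts drawn independently for each library, which checks the code and not these data. Sex was not in the main model, since no library is labelled by sex. Nothing states that libraries came from separate litters or cages. Floors cover counting error only.

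The members and lists were chosen with earlier results of these data known. Named list genes were the 2 largest rises and 2 largest falls past the threshold in each list. Flt3l and the remaining tested pDC genes were added afterwards.

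Replicate numbers are shared by the diets, but in only 8 of 12 pairs did the deviations of libraries sharing a number correlate above 0.1, so no pairing was used.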

Additional observations from a re-analysis of the deposited data

How the results depend on the processing

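The 6 rises held with relative log expression, upper-quartile and total-count scaling, DESeq2, limma-voom, the sex-linked covariate and each of the 24 fits that left out a library (6 to 6 higher, 0 to 0 lower). Dropping the filter gave 7 higher, with Siglech added, beside 3709 of all 27553 genes then tested. A log2 limit of 1 gave 5, without Batf3, beside 1862 of all 14109. With at least 10 counts in every library only 3 of the 10 genes could be tested. Of these 1, Irf8, was higher, beside 1801 of all 11717 genes then tested. At that setting 15 related genes were higher and 1 lower. An FDR of 0.05 without a fold limit called 1 member lower, Zbtb46, and 6 higher, beside 5221 lower and 3742 higher of all 14109 tested genes. Related genes called lower numbered 1 with upper-quartile factors, with DESeq2 and with relative log expression, and 0 with total counts alone, against 2. Clec9a reversed to 0.058 with upper-quartile factors and 0.25 with total counts alone, and ran from -0.132 to 0.0066 over the fits leaving out a library. The median of all tested genes moved up by 0.15 and 0.37 under those scalings, and by 0.12 without the filter. Per Ptprc count 2 genes were lower, against 4 per pan-leukocyte count, and Flt3 (0.38), Irf8 (0.064) and Xcr1 (0.41) reversed. The cause was not tested. The share of all tested genes lower per Ptprc count was not computed, so nothing is read from that count.

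With the replicate number as a block, 6 genes were higher and 0 lower, 27 related genes were higher and 2 lower, and per pan-leukocyte count 1 was higher and 4 lower, so the block changed no member's call. Same-numbered pairs had r from -0.28 to 0.35 (median 0.233, other pairs -0.059).

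For single genes, leaving out a library changed 16 of 528 values, 15 no longer past the threshold and 1 of opposite sign. Among 248 values from the remaining settings, 12 no longer passed, 1 newly passed and 5 changed sign. Counts at or below 3 occurred in 6 control libraries for Siglech, 4 for Xcr1, 2 for Cd209a and 1 each for Flt3, Batf3 and Itgae.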
